A study of Mus musculus with 19 samples.

Results

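The 10 genes studied here belong to the heat shock and chaperone system and were followed across the 4 groups of the bulk RNA-seq data, out of 24982 rows in the table of gene counts. They were taken by symbol and encode the inducible HSP70 proteins HSPA1A and HSPA1B, the constitutive HSP70 HSPA8, the HSP110 protein HSPH1, the J-domain proteins DNAJA1 and DNAJB1, the cytosolic HSP90 proteins HSP90AA1 and HSP90AB1, and the mitochondrial chaperonin HSPD1 with its partner HSPE1. All 10 were found, and all 10 passed the filter on low counts that left 11464 genes for testing. The 10 genes were selected with earlier results on injury and on CD44 from these same libraries known, so their own differences between groups are given as a description, with fitted changes and SE but without p-values. Tests are given for 94 further genes of the chaperone system, held in 11 lists, of which 89 could be tested. These lists were also chosen with earlier results of these data known, so their p-values and counts carry the same limit. The cells were CD4+FoxP3-GFP+ regulatory T cells (Tregs) of the mouse strain Foxp3DTR, in which the *Foxp3* locus also drives a diphtheria toxin receptor joined to GFP. Every group carried this allele, sham controls included. Tregs were sorted as CD44high or CD44low from the axillary, brachial and inguinal nodes that drain the injury site, at 7 days in injured mice. Injured mice had received a burn of the back, and uninjured mice a sham procedure. The labels hold 4 CD44high and 5 CD44low samples of uninjured mice, and 4 CD44high and 6 CD44low samples of injured mice. They do not say whether a sample is 1 mouse or a pool, so p-values measure the spread between these samples, which may be partly technical.

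Heat shock proteins are molecular chaperones that hold, fold and refold other proteins. HSP70 binds short exposed stretches of unfolded chains, J-domain proteins deliver the client and set off ATP hydrolysis, and HSP110 proteins such as HSPH1 exchange the nucleotide. Cytosolic HSP90 takes over late folding steps of kinases and receptors with the help of co-chaperones, and HSPD1 with HSPE1 forms the folding chamber of the mitochondrial matrix. Under stress the transcription factor HSF1 binds repeats of GAA and its complement in gene promoters. *Hspa1a* and *Hspa1b* are known for being nearly silent in resting cells and strongly induced by heat or proteotoxic stress, whereas *Hspa8* and *Hsp90ab1* are abundant in unstressed cells.

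Between 5582234 and 9433610 reads per library were counted on genes, so that 1 count corresponded to between 0.106 and 0.180 CPM (counts per TMM-adjusted library size, the usual counts-per-million scale). Foxp3, Cd4, Cd3e, Il2ra, Ctla4 and Ikzf2, the Treg markers, were detected in all 19 libraries, and *Foxp3* lay between 47.7 and 181 CPM. Markers of other cell types were also present. The summed level of 6 macrophage and neutrophil markers ran from 62.6 to 131 CPM in uninjured and from 109 to 239 in injured CD44high Tregs, and from 21.4 to 37.2 and from 31.5 to 150 CPM in the CD44low groups. The 5 B cell markers summed to between 70.3 and 206 CPM over all groups, the 5 CD8 T and NK cell markers to between 80.8 and 157 CPM, the 5 dendritic cell markers to between 0.719 and 41.7 CPM, and the 5 stromal and endothelial markers to between 59.3 and 230 CPM, with *Cdh5* at 0 in every CD44low library. Only 2 of these last 5 genes passed the filter on low counts, and *Pdgfrb* was also at 0 in every uninjured CD44low library. The sums are not broken down by gene here. The part of these marker genes in the results was not tested, and in sorted bulk samples fewer expressing cells and less RNA per cell cannot be told apart. Among the injured CD44low libraries, 3 of 6 bear an added number (libraries 1_2, 4_2 and 5_2) that no label explains. Library 1 shares its first number with 1_2, and library 5 with 5_2. Whether these are repeats of 1 sample is not stated, and the fit took all 6 as separate samples. Libraries 1_2, 4_2 and 5_2 stood apart from libraries 1, 2 and 5 in several of the 10 genes. Injury changes of the 10 genes in CD44low Tregs, and their counts of calls, are given with each set alone. For the further chaperone genes, only the count of calls after injury is given by set.

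Relative to transcript length, the constitutive cytosolic chaperones dominated in all 4 groups. *Hsp90ab1* had the highest mean in each group, between 394 and 766 CPM per kb of exon sequence, followed by *Hspa8* at between 298 and 464 CPM per kb. *Hspa8* exceeded the third gene in every library, whereas the ranges of *Hsp90ab1* and *Hspa8* overlapped in 3 of the 4 groups. *Hspd1*, *Hspe1*, *Dnajb1* and *Hsp90aa1* formed a middle range of 47.5 to 102 CPM per kb, within which most neighbours in the order overlapped. *Hsph1* and *Dnaja1* lay at 25.6 and 23.7 CPM per kb in uninjured CD44high Tregs and at 25.8 and 26.3 in uninjured CD44low Tregs, with *Hsph1* the higher in 4 of 4 libraries of the former and *Dnaja1* in 2 of 5 of the latter. In injured CD44high and CD44low Tregs *Hsph1* lay within the middle range, at 59.3 and 50.4 CPM per kb. *Dnaja1* stayed below it there, at 34.2 and 35.3. The inducible genes came last in every group. *Hspa1b* had means of 5.41 and 12.1 CPM per kb in uninjured CD44high and CD44low Tregs and of 1.34 and 0.829 in injured ones, and *Hspa1a* had 3.39, 4.67, 0.219 and 0.103. Together the 10 genes took up 0.257% and 0.291% of the normalised counts in the 2 uninjured groups (CD44high, then CD44low) and 0.386% and 0.396% in the injured groups.

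**Figure D1:**
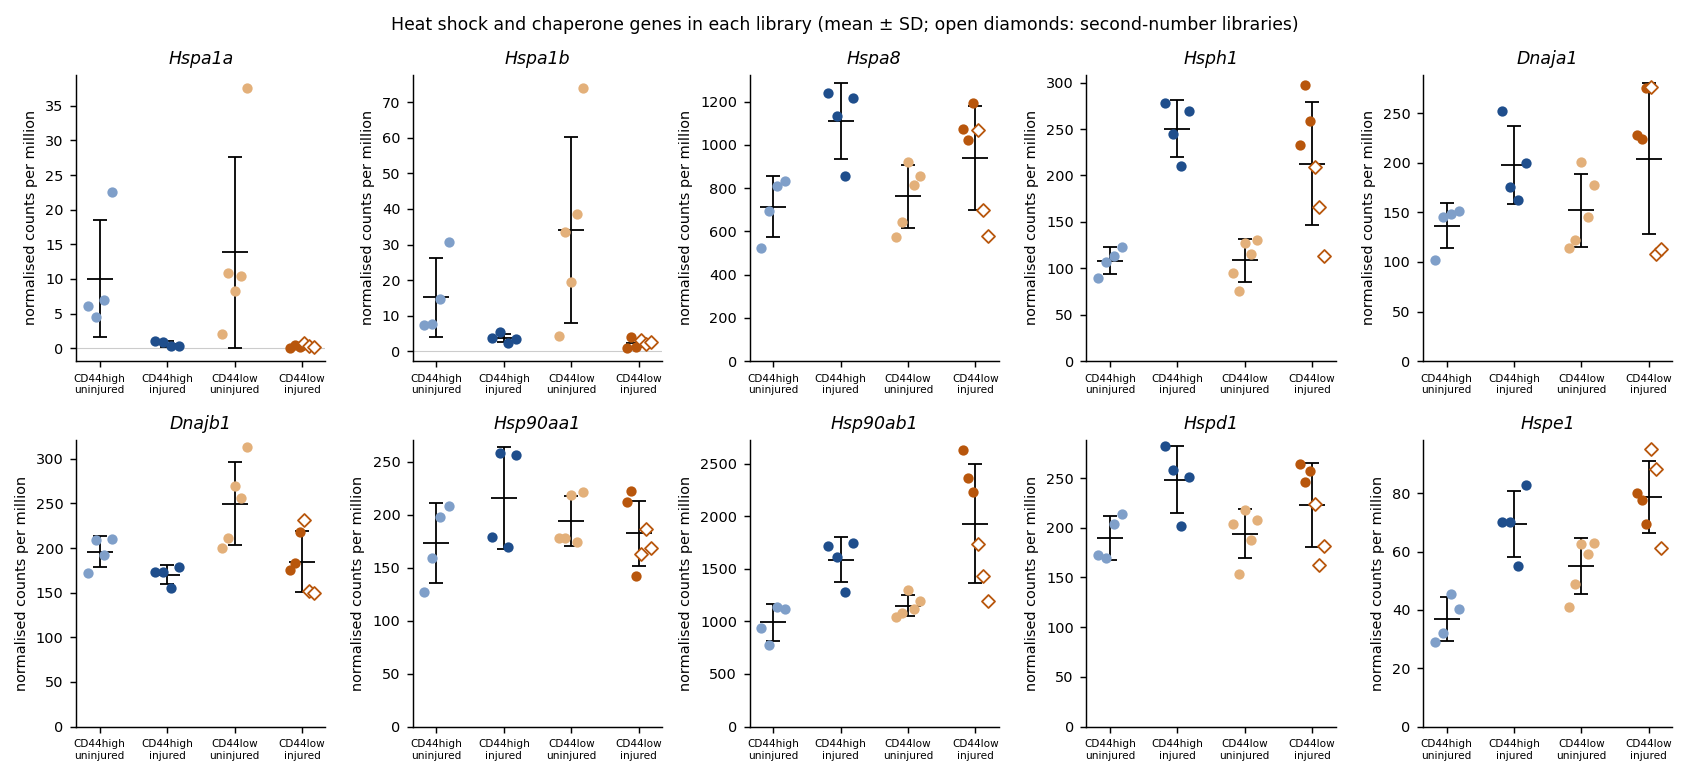
Level of each of the 10 genes in the 19 libraries (y axis: normalised CPM, a separate linear scale for each gene; x axis: group). Points are libraries, bars give the mean ± SD, and open diamonds are the injured CD44low libraries with a second number; *Hspa1a* and *Hspa1b* lie near 0 in every injured library, and *Hsph1* in injured CD44high Tregs lies above all uninjured ones.

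The inducible HSP70 genes were lower in injured mice in both subsets. In uninjured CD44high Tregs the libraries held 6.06, 4.58, 7.01 and 22.6 CPM of *Hspa1a*, against 1.06, 0.953, 0.323 and 0.262 CPM in injured ones. In uninjured CD44low Tregs they held 2.03, 10.9, 8.23, 10.5 and 37.6 CPM, whereas the 6 injured libraries ran from 0 to 0.690 CPM with a median of 0.255. Every injured library lay below every uninjured library of its subset, and library 5 was the highest in both uninjured groups. These injured levels rest on 2 to 9 counts per CD44high library and on 0 to 4 counts per CD44low library. The library without a count allows up to 0.446 CPM (3 counts), counting error only. The fitted log2 fold change of *Hspa1a* was -3.94 ± 0.74 (SE) in CD44high Tregs, 15.3-fold lower, and -5.43 ± 0.71 in CD44low Tregs, 43.2-fold lower.

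*Hspa1b* had the same order of groups at a higher level. Uninjured CD44high libraries held 7.31, 7.80, 14.7 and 30.8 CPM and injured ones 3.85, 5.40, 2.37 and 3.41 CPM. In CD44low Tregs the 5 uninjured libraries held 4.22, 33.6, 19.4, 38.7 and 74.1 CPM, and the injured ones ran from 0.893 to 3.99 CPM with a median of 2.34. The groups did not overlap in either subset, although uninjured CD44low library 1, at 4.22 CPM, came close to the highest injured one. The log2 fold changes were -2.02 ± 0.58 in CD44high Tregs (4.07-fold lower) and -3.85 ± 0.53 in CD44low Tregs (14.4-fold lower). Without both uninjured libraries numbered 5, the changes were -3.13 and -4.61 for *Hspa1a* and -1.39 and -3.33 for *Hspa1b* in CD44high and CD44low Tregs, respectively. Over 29 alternative settings the fitted change of *Hspa1a* kept its sign, between -4.22 and -3.13 in CD44high and between -5.81 and -4.61 in CD44low Tregs.

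Counts of these paralogs are uncertain as separate values. *Hspa1a* and *Hspa1b* are single-exon genes on the reverse strand of chromosome 17 (GENCODE vM21, GRCm38; *Hspa1a* chr17:34969190-34972156, *Hspa1b* chr17:34956436-34959238), 9951 bases apart, and their coding sequences were identical at 1918 of 1926 aligned bases (99.6%). Of all windows of 50 bases in the transcripts, 60.3% of those of *Hspa1a* and 62.3% of those of *Hspa1b* occurred in another gene, mostly in the respective partner. The sources used here do not say how reads with several matches were counted. Summed over the pair, which removes the split between them, the level was 25.2 ± 19.3 CPM (SD, n = 4) in uninjured and 4.41 ± 1.58 (n = 4) in injured CD44high Tregs, and 47.9 ± 39.5 (n = 5) and 2.63 ± 1.37 (n = 6) in CD44low Tregs. The log2 fold changes of the sum were -2.53 ± 0.60 and -4.16 ± 0.54. The ratio of *Hspa1b* to *Hspa1a* counts was 1.48 in uninjured CD44high and 2.49 in uninjured CD44low Tregs, and 5.82 and 7.83 in injured ones, where it rests on few *Hspa1a* counts.

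The promoters of both genes are shown because they are as alike as the genes. Printed are the 250 bases before the start site (RefSeq, GRCm38.p6, reverse strand, 5′ to 3′), at chr17:34972157-34972406 for *Hspa1a* and chr17:34959239-34959488 for *Hspa1b*, with letters of the paired unit GAANNTTC in capitals.
Hspa1a: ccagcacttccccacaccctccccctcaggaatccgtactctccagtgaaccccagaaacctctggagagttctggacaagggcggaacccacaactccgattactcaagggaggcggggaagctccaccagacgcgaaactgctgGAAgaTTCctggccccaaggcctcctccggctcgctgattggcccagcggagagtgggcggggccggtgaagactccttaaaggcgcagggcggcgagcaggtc
Hspa1b: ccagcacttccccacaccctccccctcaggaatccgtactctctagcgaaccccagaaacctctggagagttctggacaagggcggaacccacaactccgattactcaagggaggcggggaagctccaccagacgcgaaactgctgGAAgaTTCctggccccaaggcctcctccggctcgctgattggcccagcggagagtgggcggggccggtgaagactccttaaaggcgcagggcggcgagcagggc
Only exact units are marked. The stretches were identical at 247 of 250 bases. The differences, counted from 1 at the 5′ end with the base of *Hspa1a* first, were C44T, T47C and T249G.

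Immediate-early genes, which are transcribed within minutes of a stimulus, are given beside this result. They too were lower in most injured libraries than in the uninjured libraries of the same subset. Summed over 11 genes (*Fos*, *Fosb*, *Jun*, *Junb*, *Egr1*, *Ier2*, *Atf3*, *Dusp1*, *Zfp36*, *Btg2* and *Nr4a1*) they held between 3804 and 4663 CPM in uninjured and between 2141 and 2679 CPM in injured CD44high Tregs. In CD44low Tregs they held between 3752 and 4987 CPM in uninjured mice. Injured libraries 1, 2 and 5 held 2075, 2196 and 2103 CPM, but libraries 1_2, 4_2 and 5_2 held 3516, 3089 and 3848 CPM. *Hspa1a* and *Hspa1b* were low in both of these sets. Within groups, deviations of log2 CPM from the group mean correlated at r = 0.258 between the inducible pair and the immediate-early genes (19 libraries). In injured CD44low Tregs these deviations include the difference between the library sets. Of 10 genes of the immediate-early list that were tested, 4 fell after injury in CD44high Tregs and 3 in CD44low Tregs. Over all genes tested, 1.33% and 3.36% were called lower in these comparisons. The calls in CD44low Tregs are not given by library set. The called genes are named after their values were seen. In CD44high Tregs *Fos* fell by 3.38 ± 0.66 on the log2 scale (adjusted p = 0.00458, quasi-likelihood test of edgeR, adjusted by Benjamini-Hochberg over all genes, as for every adjusted p here), with *Dusp1*, *Jun* and *Zfp36*. In CD44low Tregs *Jun* fell by 1.28 ± 0.25 (edgeR adjusted p = 0.00355), with *Junb* and *Btg2*. Their part in the *Hspa1a* and *Hspa1b* levels was not tested.

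**Figure D2:**
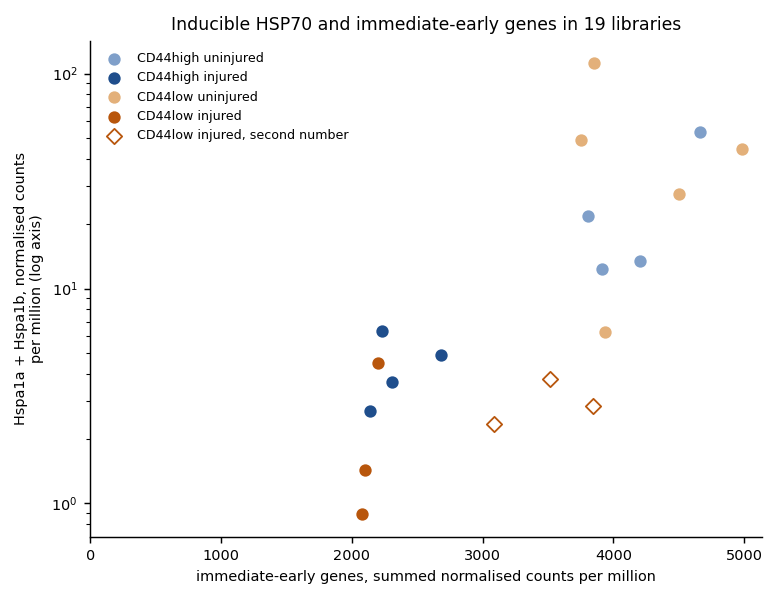
Summed *Hspa1a* and *Hspa1b* (y axis, normalised CPM, log axis) against the sum of 11 immediate-early genes (x axis, normalised CPM, linear) in 19 libraries, coloured by group. Injured CD44low libraries with a second number (open diamonds) lie at 3089 to 3848 CPM of immediate-early genes, beside the uninjured libraries, but with the other injured libraries in inducible HSP70.

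*Hsph1*, the nucleotide exchange partner of HSP70, was higher in injured mice. Its libraries held 89.3, 107, 113 and 124 CPM in uninjured and 278, 245, 210 and 269 CPM in injured CD44high Tregs. These groups did not overlap, and the log2 fold change was 1.21 ± 0.21 (2.31-fold higher). In CD44low Tregs the uninjured libraries held 94.9, 75.6, 128, 115 and 130 CPM, and the injured ones ran from 113 to 298 CPM with a median of 221. Here library 5_2 fell among the uninjured ones, and the change was 0.97 ± 0.18 (1.96-fold higher).

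*Hspa8*, whose protein folds new chains and uncoats clathrin, was higher in injured CD44high Tregs (522, 695, 809 and 832 CPM uninjured, 1240, 1133, 856 and 1216 CPM injured) by a log2 fold change of 0.64 ± 0.20. The groups were separate by a narrow margin, from 832 to 856 CPM. In CD44low Tregs *Hspa8* ranged from 574 to 922 CPM without and from 579 to 1192 CPM with injury, which overlapped widely (0.30 ± 0.17). *Dnaja1* was similar, with 102, 145, 148 and 151 CPM in uninjured and 252, 175, 163 and 200 CPM in injured CD44high Tregs, a change of 0.53 ± 0.25. In CD44low Tregs its change was 0.43 ± 0.22, and the injured libraries split into 4 between 224 and 276 CPM and 2 at 108 and 113 CPM (libraries 4_2 and 5_2). *Dnajb1*, the J-domain gene most closely tied to the heat shock response, was instead lower in injured mice. In CD44low Tregs it held 200, 211, 270, 256 and 313 CPM in uninjured libraries and between 149 and 232 CPM in injured ones, a change of -0.43 ± 0.12, and in CD44high Tregs the change was -0.20 ± 0.14. Library 5 was again the highest uninjured one in both subsets.

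The cytosolic HSP90 genes differed from each other. *Hsp90ab1*, the constitutive form, held 935, 772, 1141 and 1122 CPM in uninjured and 1718, 1611, 1276 and 1749 CPM in injured CD44high Tregs, without overlap and with a log2 fold change of 0.68 ± 0.18. In CD44low Tregs the uninjured libraries lay between 1041 and 1296 CPM and the injured ones between 1191 and 2635 CPM (median 1981), a change of 0.75 ± 0.16. Only library 5_2 of the injured ones lay within the uninjured range. *Hsp90aa1*, the more stress-responsive form, held 127, 160, 198 and 209 CPM in uninjured and 179, 258, 170 and 256 CPM in injured CD44high Tregs, which overlapped (0.32 ± 0.17). In CD44low Tregs its mean was 194 ± 23.8 CPM (SD, n = 5) without and 182 ± 30.7 (n = 6) with injury, a change of -0.09 ± 0.14. The coding sequences of both were identical at 76.4% of aligned bases. In the transcript of *Hsp90aa1*, 58.5% of windows of 50 bases occurred in other annotated genes, mostly the pseudogene *Gm12346*, against 4.49% for *Hsp90ab1*, so the *Hsp90aa1* count is the less certain one. The same holds for *Hspa8*, with 73.2% of windows, mostly in *Gm15459*.

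The mitochondrial chaperonin pair was higher in injured mice mainly in its small subunit. *Hspe1*, the lid of the folding chamber, held 29.1, 32.0, 45.4 and 40.4 CPM in uninjured and 70.0, 70.2, 54.9 and 82.7 CPM in injured CD44high Tregs, without overlap and with a log2 fold change of 0.92 ± 0.17 (1.89-fold). In CD44low Tregs the uninjured libraries held 41.0, 49.0, 62.6, 59.2 and 63.0 CPM and the injured ones between 61.2 and 95.0 CPM, a change of 0.52 ± 0.15. *Hspd1*, the barrel subunit, held 173, 169, 204 and 213 CPM in uninjured and 282, 258, 202 and 251 CPM in injured CD44high Tregs (0.39 ± 0.15), and in CD44low Tregs its change was 0.20 ± 0.13. Both of its comparisons overlapped. The genes lie head to head on chromosome 1 and overlap by 112 bases on opposite strands (GENCODE vM21, GRCm38, chr1:55088132-55088243), and without a known strand setting reads there cannot be assigned to one of them. Pseudogenes share 44.8% of windows of 50 bases with *Hspd1* and 36.1% with *Hspe1*.

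The shared promoter of this pair holds 4 HSF-type units in a row. Sites were sought in windows of 250 bases before to 50 after each start (RefSeq, GRCm38.p6) as 3 alternating units, GAANNTTCNNGAA or TTCNNGAANNTTC, which are each other's reverse complement and may overlap, and as 2 units, GAANNTTC or TTCNNGAA, which the longer ones contain. Of the 10 genes, 7 had an entry. The 3-unit form was found for *Hspd1*, *Hspe1* and *Hsph1*, against 0.662% of all 27025 genes with an entry. For *Hspd1* and *Hspe1* it is the same stretch of the genome. The shorter form was found for these and for *Hspa1a*, *Hspa1b* and *Dnaja1*, against 17.0% of all genes with an entry. Of 79 further chaperone genes with an entry, 2 held the 3-unit form (*Dnajb6* and *Chordc1*) and 17 the 2-unit form. The sites are shown with the units in capitals, in the direction of *Hspe1* (chr1:55088053-55088082, forward strand, also within an annotated first exon of *Hspd1*) and of *Hsph1* (chr5:149636282-149636306, reverse strand, 16 bases or 37 bases after its annotated starts).
Hspd1 and Hspe1: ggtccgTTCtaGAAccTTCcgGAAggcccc
Hsph1: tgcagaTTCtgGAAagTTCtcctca
Every unit had to match exactly, so runs with a changed base were not counted, in *Hspa1a* and *Hspa1b* as in all other genes. A match of letters describes the sequence and was not taken as a bound site.

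By the rule used for all genes (adjusted p under 0.05), 3 of the 10 genes were called between injured and uninjured CD44high Tregs, *Hspa1a* as lower and *Hsph1* and *Hspe1* as higher, where 2.38% of all genes tested were called (1.06% higher and 1.33% lower). In CD44low Tregs 6 were called, *Hspa1a*, *Hspa1b* and *Dnajb1* as lower and *Hsph1*, *Hsp90ab1* and *Hspe1* as higher, where 7.60% of all genes were called (4.24% higher and 3.36% lower). Counted by groups that did not overlap, it was 7 of 10 in CD44high Tregs (5 higher and 2 lower) against 13.3% of all genes, and 2 of 10 in CD44low Tregs (both lower) against 4.68%. The count of 3 in CD44high Tregs was 5 with DESeq2, 5 without the filter on low counts and 7 with the compared groups alone. It was also 5 without CD44low uninjured library 1 or without CD44low injured library 5_2. *Hsp90ab1* was called there in 15 and *Hspa1b* in 4 of 29 alternative settings. The sum of *Hspa1a* and *Hspa1b* also passed the threshold in CD44high Tregs (-2.53 ± 0.60), so these calls do not separate the paralogs. In CD44low Tregs *Dnajb1* was called in 19 and *Hspe1* in 23 of the 29, and *Hspa1a* and *Hspa1b* in all 29. With injured libraries of the same first number summed (1 with 1_2, and 5 with 5_2), the count in CD44low Tregs was again 6. Since the 10 genes were chosen on contrasts that include these, the counts describe them and are not read further. Their median log2 fold change was 0.46 in CD44high and 0.25 in CD44low Tregs, against -0.02 and 0.01 over all genes tested.

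**Figure D3:**
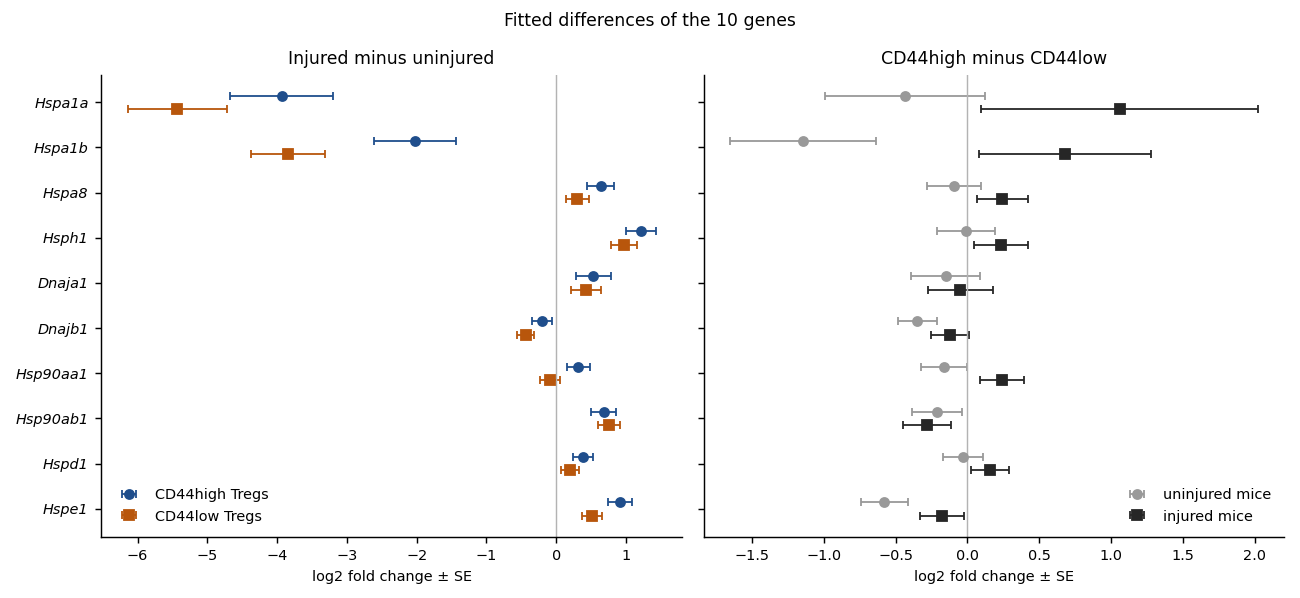
Fitted log2 fold changes ± SE of the 10 genes, for injured minus uninjured mice in each subset (left) and CD44high minus CD44low Tregs in each condition (right; the x axes differ). *Hspa1a* and *Hspa1b* lie far to the left after injury in both subsets, and most differences between the subsets are within 0.5 of 0.

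Between CD44high and CD44low Tregs, few of the 10 genes were called. In uninjured mice 2 of 10 were called, both lower in CD44high Tregs, where 46.1% of all genes were called (24.7% higher and 21.3% lower). These were *Hspe1* (-0.58 ± 0.17; 36.7 ± 7.51 CPM, n = 4, against 54.9 ± 9.65, n = 5, SD) and *Dnajb1* (-0.35 ± 0.14). *Dnajb1* was no longer called without CD44high uninjured library 2 or 4 or CD44low uninjured library 3, 4 or 5, which left 1 of 10. Without CD44high uninjured library 5 or CD44low uninjured library 1 the count was 3, with *Hspa1b* added. In injured mice 0 of 10 were called, where 37.4% of all genes were (20.1% higher and 17.2% lower), and at an unadjusted p under 0.05 it was also 0 of 10. DESeq2 called 2 and 0 of 10 in these comparisons. None of the 10 had separate ranges between the subsets in either condition, against 40.7% of all genes in uninjured and 24.8% in injured mice. *Hspa1b* had the widest gap in uninjured mice (-1.14 ± 0.51), although library 1 of the CD44low group lay below all 4 CD44high libraries.

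The effect of injury was compared between the subsets as an interaction. At an adjusted p under 0.05, 0 of 10 genes were called by edgeR and 0 by DESeq2, where 0.645% of all genes were called by edgeR, and 1 of 10 at an unadjusted p under 0.05. The difference (CD44high minus CD44low) was 1.496 ± 1.11 for *Hspa1a* and 1.82 ± 0.78 for *Hspa1b*, 0.24 ± 0.28 for *Hsph1*, -0.07 ± 0.24 for *Hsp90ab1* and 0.40 ± 0.22 for *Hspe1*. The values of the inducible genes stand for a smaller decrease in CD44high Tregs, with SE as large as 1.11.

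The 2 sets of injured CD44low libraries were separate in 3 of the 10 genes and overlapped in the other 7. *Hsp90ab1* held 2635, 2366 and 2229 CPM in libraries 1, 2 and 5 and 1732, 1436 and 1191 CPM in libraries 1_2, 4_2 and 5_2. *Hsph1* held 233, 298 and 259 CPM against 210, 166 and 113 CPM, and *Hspd1* 264, 246 and 257 CPM against 224, 162 and 181 CPM. For these 3 genes the sets did not overlap, with libraries 1, 2 and 5 higher by 1.66, 1.62 and 1.35 times. Over all genes tested the sets did not overlap in 19.3%, with libraries 1, 2 and 5 the higher in 9.96%, so the libraries differed in many other genes as well. The summed macrophage and neutrophil markers were also separate, at 50.3, 102 and 150 CPM against 31.5, 41.2 and 44.7 CPM, and their part was not tested. Of the 7 of the 10 genes that overlapped, *Hspe1* had the lower mean in libraries 1, 2 and 5 (75.7 against 81.5 CPM), and so had both inducible genes. With libraries 1, 2 and 5 alone, the log2 fold change of injury was 1.07 ± 0.12 for *Hsp90ab1*, 1.27 ± 0.15 for *Hsph1* and 0.40 ± 0.12 for *Hspd1*. With libraries 1_2, 4_2 and 5_2 alone it was 0.36 ± 0.13, 0.60 ± 0.18 and -0.01 ± 0.13. *Hspa1a* changed by -5.81 ± 1.02 and -5.06 ± 0.95 and *Hspa1b* by -3.99 ± 0.73 and -3.67 ± 0.70 with either set, and *Hspe1* by 0.46 ± 0.16 and 0.59 ± 0.18. Of the 10 genes, 8 were called with the first set and 2 with the second, the latter being *Hspa1a* and *Hspa1b*, where 15.1% and 3.85% of all genes tested were called, and nothing is read from these counts. Each of the 6 injured libraries held less *Hspa1a* and *Hspa1b* than any uninjured CD44low library, while the change of *Hspa8* was 0.52 ± 0.15 with the first and 0.06 ± 0.19 with the second. In the same order, *Dnaja1* changed by 0.67 ± 0.17 and 0.14 ± 0.25, and *Dnajb1* by -0.38 ± 0.13 and -0.47 ± 0.15. *Hsp90aa1* changed by -0.01 ± 0.17 and -0.15 ± 0.16.

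**Figure D4:**
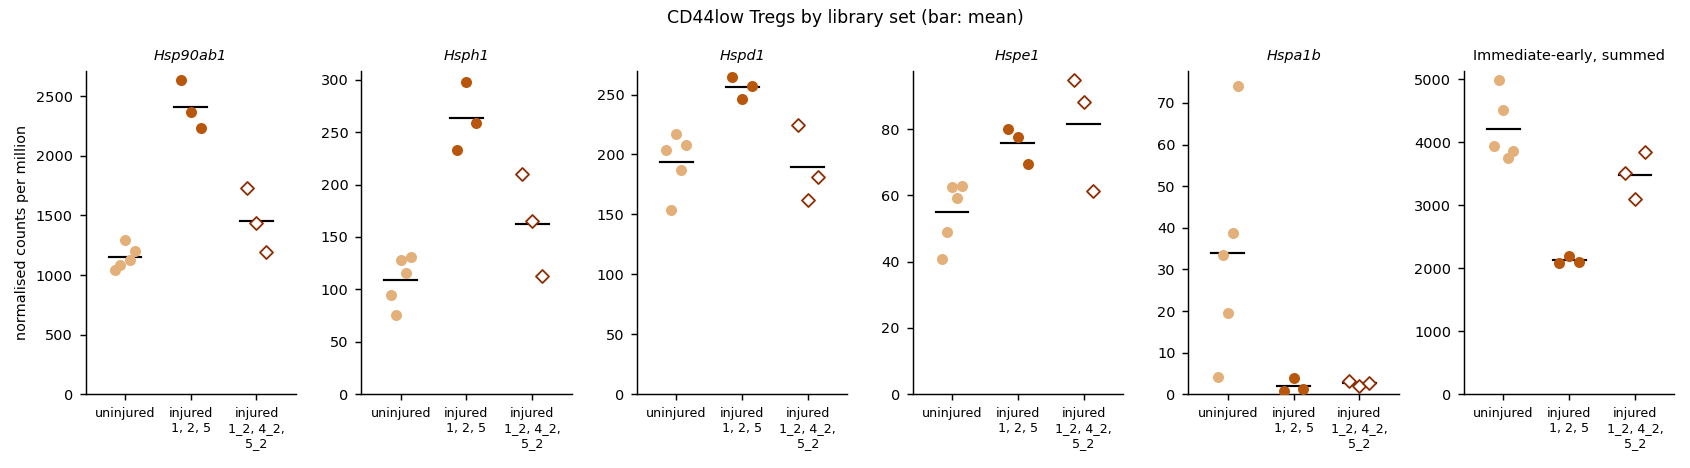
CD44low Tregs of uninjured mice and the 2 sets of injured libraries (x axis) for 5 of the genes and for the immediate-early sum (y axis: normalised CPM from 0, a separate scale per panel; bars: mean). *Hsp90ab1*, *Hsph1* and *Hspd1* and the immediate-early sum of libraries 1_2, 4_2 and 5_2 lie nearer to the uninjured libraries than those of libraries 1, 2 and 5, whereas *Hspa1b* is low in both sets.

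The wider chaperone system was then tested for injury, in lists chosen with earlier results of these data known. In CD44low Tregs 16 of the 89 genes rose and 1 fell (19.1%, beside 7.60% of all genes). The HSP90 co-chaperones had 6 of 17 higher and 0 lower (35.3% called), with a median log2 fold change of 0.34 over the list. The chaperones of the endoplasmic reticulum came close, with 33.3% called. *Stip1*, which links HSP70 to HSP90, rose from 190 ± 30.2 to 354 ± 108 CPM (SD, n = 5 and 6; 0.90 ± 0.18, edgeR adjusted p = 0.00462). *Ahsa1*, the activator of the HSP90 ATPase, rose from 133 ± 21.7 to 227 ± 49.1 CPM (0.77 ± 0.15, edgeR adjusted p = 0.00490), and *Stub1*, a ubiquitin ligase that acts on chaperone clients, from 83.7 ± 12.8 to 126 ± 20.5 CPM (0.58 ± 0.13, edgeR adjusted p = 0.00791). Among the J-domain genes 1 of 12 rose, *Dnaja4* (0.70 ± 0.15, edgeR adjusted p = 0.00701). *Hsf1* itself rose from 77.2 ± 4.21 to 98.9 ± 7.49 CPM, without overlap (0.36 ± 0.09, edgeR adjusted p = 0.0224). Of the TRiC chaperonin, which folds actin and tubulin, 2 of 8 subunits rose and all 8 had a positive change, with a median of 0.29. With libraries 1_2, 4_2 and 5_2 alone, 2 of the 89 genes were called in this comparison, where 3.85% of all genes tested were called. With libraries 1, 2 and 5 alone 32 were called, where 15.1% of all genes tested were called. Without library 5_2 only, the count was also 32.

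In the endoplasmic reticulum 3 of 12 chaperones rose and 1 fell in injured CD44low Tregs. *Hspa5*, the HSP70 of this compartment, rose from 739 ± 50.2 to 1064 ± 283 CPM (0.53 ± 0.14, edgeR adjusted p = 0.0241), and *Hyou1*, its HSP110 partner, fell by 0.86 ± 0.23 on the log2 scale (edgeR adjusted p = 0.0276). *Hsp90b1* did not pass (0.31 ± 0.12, edgeR adjusted p = 0.103). Of the other mitochondrial chaperones 1 of 10 rose, and *Hspa9* (-0.05 ± 0.08) and *Trap1* (-0.04 ± 0.11) were not called. None of the other listed HSP70 and HSP110 genes tested (6), small heat shock proteins (2), other heat-induced genes (5) or prefoldin subunits (6) was called. *Bag3* and *Hspb1*, both strongly heat-induced in many cells, gave 0.08 ± 0.19 and 1.15 ± 0.65, and *Hsf2* -0.65 ± 0.46. *Hspb1* and *Hsf2* lay at 2.05 and 2.49 CPM in this group, close to the level where counts are few.

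In CD44high Tregs 1 of the 89 genes was called after injury (1.12%, beside 2.38% of all genes). This was *Dnajc3*, an endoplasmic J-domain inhibitor of eIF2 kinases, which rose from 156 ± 6.52 to 202 ± 8.20 CPM (SD, n = 4 each; 0.38 ± 0.09, edgeR adjusted p = 0.0277). At an unadjusted p under 0.05 the count was 17, and DESeq2 called 6. The count of 1 moved between 0 and 7 when single libraries were left out, with 0 without CD44high uninjured library 2, 3 or 5 or CD44high injured library 2, 4 or 5, and 7 without CD44low injured library 5_2. It was 2 to 4 without CD44low uninjured library 2 or CD44low injured library 1, 2, 5, 1_2 or 4_2. *Stip1* gave 0.75 ± 0.21 (edgeR adjusted p = 0.0522), *Hspa5* 0.58 ± 0.16 (edgeR adjusted p = 0.0583) and *Ahsa1* 0.52 ± 0.18 (edgeR adjusted p = 0.144), none past the threshold. *Hsf1* differed by 0.05 ± 0.11. For the interaction of injury and subset, 0 of the 89 genes were called by edgeR, 6 had an unadjusted p under 0.05, and DESeq2 called 1. The longer list of calls in CD44low Tregs was therefore not shown to differ from that in CD44high Tregs.

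**Figure D5:**
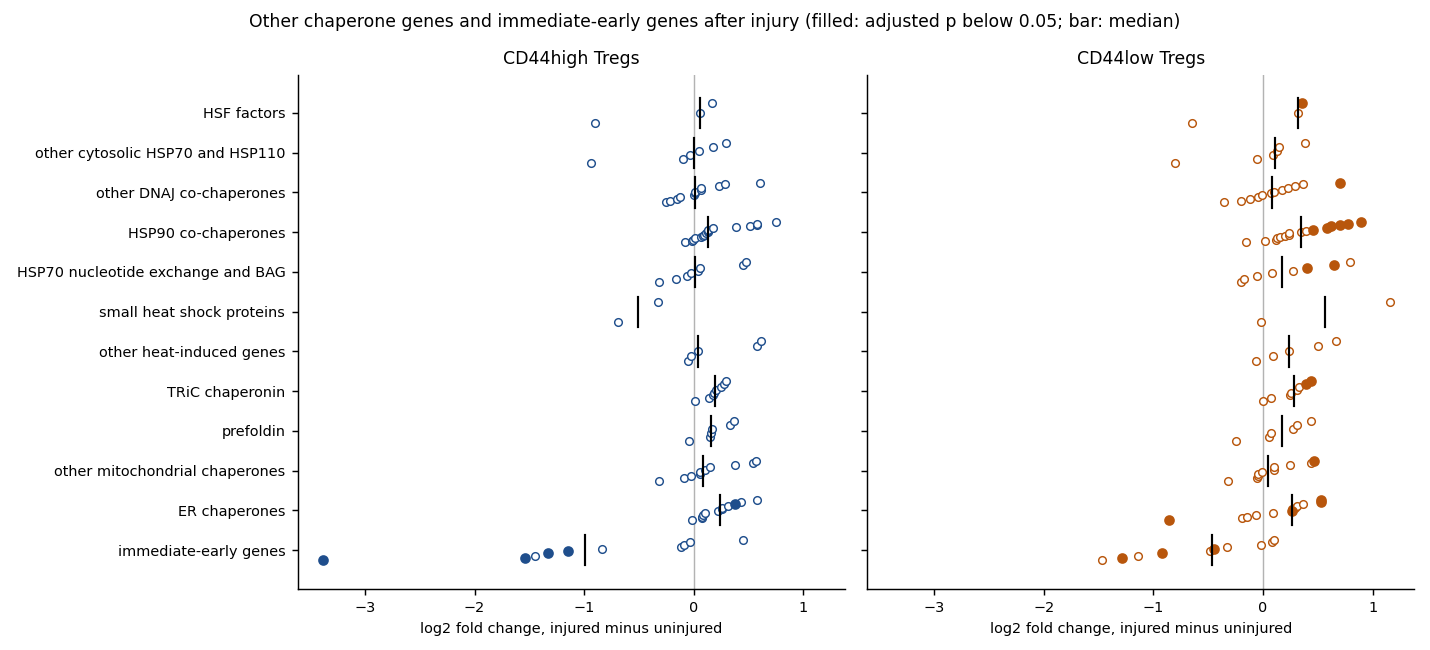
Log2 fold change of injury (x axis) of the tested genes of 11 chaperone lists and of the immediate-early genes (rows), in CD44high (left) and CD44low Tregs (right). Each point is 1 gene, filled where the adjusted p is below 0.05, and the bar is the median of the list; HSP90 co-chaperones hold 6 filled points in CD44low Tregs, and the immediate-early median is -0.99 on the left and -0.46 on the right.

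By CD44, the chaperones of the endoplasmic reticulum stood out among the lists. In uninjured mice 8 of 12 were higher and 2 lower in CD44high Tregs (83.3%, beside 46.1% of all genes; median 0.56), and in injured mice 9 of 12 were higher and 0 lower (75%, beside 37.4%; median 0.46). *Sdf2l1*, a subunit of the Hspa5 complex, reached 79.4 ± 3.71 CPM in CD44high against 33.3 ± 2.46 in CD44low Tregs of uninjured mice (1.25 ± 0.16, edgeR adjusted p = 8.03e-07). *Hsp90b1*, the HSP90 of this compartment, was higher by 0.79 ± 0.13 and 0.74 ± 0.13 in uninjured and injured mice, and *Hspa5* by 0.65 ± 0.15 and 0.71 ± 0.15. *Dnajc3* was lower in uninjured mice (-0.57 ± 0.09, edgeR adjusted p = 1.38e-05).

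Over all lists, 25 of the 89 genes were higher and 11 lower in CD44high Tregs of uninjured mice (40.4%), and 17 higher and 10 lower in injured mice (30.3%), in both cases below the share of all genes. *Hspa2* and *Hspa4l* of the other HSP70 and HSP110 genes were higher in both, *Hspa2* by 2.17 ± 0.32 and 2.07 ± 0.30, and *Hspa4l* by 0.87 ± 0.17 and 0.90 ± 0.16. *Bag3*, an HSP70 nucleotide exchange factor, was also higher (1.09 ± 0.21 and 0.69 ± 0.20), and *Hspb1* was higher in uninjured mice at a low level (5.56 ± 1.45 against 0.942 ± 1.30 CPM). In the other direction *Hsf1* was lower in CD44high Tregs, with log2 fold changes of -0.51 ± 0.11 (edgeR adjusted p = 0.000387) in uninjured and -0.81 ± 0.10 (edgeR adjusted p = 7.88e-07) in injured mice. *Hspa9*, the mitochondrial HSP70, was likewise lower (-0.53 ± 0.09 and -0.38 ± 0.09), as were *Dnajb4* (-0.70 ± 0.18 and -0.57 ± 0.17) and the prefoldin subunit *Pfdn2* (-0.37 ± 0.14 and -0.53 ± 0.13). *Stip1*, *Ahsa1*, *Trap1* and *Hsf2* were not called in either condition.

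Within groups, pairs of the 10 genes ranged widely in how far they varied together. Deviations of log2 CPM from the group mean, over 19 libraries, correlated at r = 0.919 between *Hspa1a* and *Hspa1b*, which share much of their sequence. *Hspa8* and *Dnaja1* were at 0.921 and *Hspa8* and *Hsph1* at 0.883, but *Dnaja1* and *Hsp90aa1* at 0.180, *Dnajb1* and *Hsp90aa1* at 0.203 and *Hspd1* and *Hspe1* at 0.347. *Hspa1a* was at 0.543 with *Dnajb1* and at 0.544 with *Hspe1*. Between means over sets, r was 0.904 for the other 6 cytosolic genes against *Hspd1* and *Hspe1*, and 0.346 and 0.405 for the inducible pair against these. For the tested immediate-early genes, r was 0.258 with the inducible pair, -0.567 with the 6 cytosolic genes and -0.350 with *Hspd1* and *Hspe1*. Of the genes outside the 10, those most like the 6 cytosolic genes were *Fkbp4* (r = 0.941), *Ahsa2* (0.933), *Dynll1* (0.922), *Ahsa1* (0.902) and *Stip1* (0.901), of which *Fkbp4*, *Ahsa1* and *Stip1* are in the list of HSP90 co-chaperones. For the chaperonin pair they included *Dynll1* (0.881), *Ahsa2* (0.880), *Ncbp2* (0.874) and *Ahsa1* (0.856). For the inducible pair they were *Cdhr3* (0.830), *Terf2ip* (0.814), *Dnajc18* (0.802), *Mgst3* (0.776) and *Uqcrc2* (0.762). All injured CD44low libraries were centred on a shared mean, so the difference between their library sets enters every r given here. Its part was not tested. The libraries share their preparation and differ in depth, these are the highest of many correlations, and the values are given as a description.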

How the data were processed

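RNA-seq libraries of 19 sorted Treg samples (50000 cells each) were prepared by the authors with SMART-Seq v4. The submitters' processing notes name bcl2fastq 2.18, STAR 2.5 and the builds mm9 and mm10. The annotation, the strand setting and the treatment of multi-mapping reads are not stated. The deposited values are raw read counts per gene, made by the authors with STAR. The table has 24982 rows, of which 8091 are at 0 throughout, and totals were 5582234 to 9433610 counts per library. Counting intervals and floors (3 counts) cover counting error only.

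Groups came from the sample labels. Counts were filtered (filterByExpr, minimum count 10), scaled by TMM and fitted over all 4 groups with the edgeR 4.0.16 quasi-likelihood test in R 4.3.3, with p-values adjusted over 11464 genes. CPM per kb used merged exon lengths of GENCODE vM21. DESeq2 1.42.0, RLE size factors, no filter, the compared groups alone, a replicate block, single libraries and library sets left out, summed libraries, summed paralogs and a stricter threshold were alternatives, and thinning to the smallest total and leaving out both uninjured libraries 5 were added after seeing the data. The fit was tested on simulated data.

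The 10 genes and all gene lists were chosen with earlier results of these data known. Named were the 10 genes, 10 fixed pathway genes, the 4 pathway genes of smallest p per comparison and direction among those called, and the 5 genes most correlated with each of 3 sets. One of these correlated genes is not reported here.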

Additional observations from a re-analysis of the deposited data

Results flagged for a closer look

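In 3 of 40 combinations of gene and group, 1 library lay far from the others of its group by Dixon's criterion, which flags about 1 in 20 groups by chance. For HSPA1A, library 5 held 22.6 CPM in uninjured CD44high Tregs, where the gap to the nearest library was 0.865 of the range, and library 5 held 37.6 CPM in uninjured CD44low Tregs, where the gap was 0.752 of the range. For DNAJA1, library 2 of uninjured CD44high Tregs was the low one, with 102 CPM and a gap of 0.886 of the range.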

How the results depend on the processing

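For the 10 genes, 1442 of the recomputed fold changes moved by less than the spread between replicates and 7 moved further. Among the latter, *Hspa1a* went to -2.53 and -4.16 when summed with *Hspa1b*, by construction. No value that had been called changed sign. Of the 89 pathway genes, 1 was called after injury in CD44high Tregs. This count was 0 at an adjusted p under 0.01, 6 with DESeq2, 4 without the filter, 10 with the compared groups alone, 11 without libraries 1_2, 4_2 and 5_2, 6 without libraries 1, 2 and 5, 7 with libraries of 1 first number summed, 4 after thinning, 0 without both uninjured libraries 5, and 0 to 7 with single libraries left out. In CD44low Tregs 17 were called, against 6 at an adjusted p under 0.01, 26 with DESeq2, 11 with the compared groups alone, 32 without libraries 1_2, 4_2 and 5_2, 2 without libraries 1, 2 and 5, and 12 to 32 with single libraries left out. It was again 17 with libraries of 1 first number summed. For the interaction 0 were called, against 1 with DESeq2 and 1 without libraries 1_2, 4_2 and 5_2. The causes were not tested, beyond the fewer samples of some settings. Both counts by CD44 stayed within 1.5 times.

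Libraries with the same number in CD44high and CD44low Tregs did not deviate together throughout (r of -0.007 to 0.119 in uninjured and -0.054 to 0.167 in injured mice). Not every library correlated best with its own number. With so few libraries per group, these correlations cannot show whether equal numbers mark the same mice. The methods name no pairing, so the main fit took none. With the replicate block, 9 pathway genes were called after injury in CD44low Tregs and 1 in CD44high Tregs. Of the 10 genes, 4 rather than 6 were called after injury in CD44low Tregs under this block, without *Dnajb1* and *Hspe1*, and 3 in CD44high Tregs. By CD44 in uninjured mice it was 2, with *Hspa1b* in place of *Dnajb1*.

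Depth limited *Hspa1a* in injured mice, at 0 to 9 counts per library.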
